A study of Mus musculus with 4 samples.

Results

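The 34 genes described here encode the steps of glycolysis, the transporters that bring in glucose and let out lactate, and a set of transcripts that cells make when oxygen is short. They were chosen by name, and all 34 were found among the 27998 features of the count matrices. In glycolysis, hexokinases trap glucose in the cell, phosphofructokinase commits it to breakdown, and the later enzymes yield pyruvate, which lactate dehydrogenase turns into lactate or the mitochondria oxidise. When oxygen falls, the transcription factor subunit HIF-1α, encoded by Hif1a, is no longer marked for degradation by the prolyl hydroxylases encoded by Egln1 and Egln3, and it raises transcription of many of these genes. Macrophages and neutrophils are known to rely strongly on glycolysis, and solid tumours often hold poorly oxygenated regions.

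Transcripts were counted in 4 droplet-based single-cell libraries from MT4788 breast tumours, grown orthotopically in wild-type (WT) FVB mice and taken on day 4. Each label names 2 agents or vehicles. The control library is labelled Saline+PBS and the phenformin library Saline+Phenformin. Poly I:C+PBS marks the poly I:C library, and the combination library is labelled Poly I:C+Phenformin. Phenformin belongs to the biguanides, which block complex I of mitochondrial respiration and so push cells toward glycolysis. Poly I:C mimics viral double-stranded RNA and is sensed by Toll-like receptor 3. The tumours were dissociated and enriched for CD45-positive leukocytes with magnetic beads, and 10000 cells per condition were loaded. The sources used here do not state age, dose, dosing times or whether animals were pooled.

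Each treatment had 1 library. Treatments were therefore compared without a test, and a ratio between libraries carries a 95% interval that covers counting error only, not differences between tumours. Of 30819 barcodes, 26435 cells had at least 200 genes and under 20% mitochondrial UMIs (unique molecular identifiers, 1 per captured transcript): 6095 in control, 5453 in phenformin, 6619 in poly I:C and 8268 in the combination. Library pairs shared 11 to 29 barcodes. Cells were gated on raw UMIs as macrophage (at least 3 of Csf1r, Cd68 and Adgre1 together), T (at least 2 of Cd3d, Cd3e and Cd3g), neutrophil (at least 5 of S100a8 and S100a9 with at least 1 of Csf3r and Cxcr2), dendritic (at least 1 of Flt3) or tumour (at least 5 of Krt5 and Krt14 with no Ptprc). Macrophage-gate cells with at least 3 Arg1 UMIs were called Arg1-high and the others Arg1-low. The macrophage gate held 2030 to 2759 cells per library, the T gate 1493 to 3064, the neutrophil gate 178 to 280, the dendritic gate 203 to 300 and the tumour gate 209 to 592.

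Levels are given as CPM, a gene's share of the UMIs summed over a gate scaled to 1000000, always in the order control, phenformin, poly I:C and combination. Levels of different genes are not compared, because 3' counts depend on where each transcript ends and on near-identical copies elsewhere in the genome. Processed copies are known for Gapdh, Pgk1, Ldha, Eno1, Tpi1, Aldoa, Pgam1 and Pkm, so the absolute levels of these are uncertain. Gates overlap: 16.1%, 13.5%, 37.0% and 22.1% of neutrophil-gate cells and 31.0%, 40.1%, 47.8% and 45.0% of dendritic-gate cells also passed another gate, against 0.957% to 1.86% of tumour-gate cells. Doublets were not removed, and mixed droplets were not told apart from cells that truly carry markers of more than 1 type. In cells that passed 1 gate only, each gate's own marker list stood above its level in the other gates. These lists include the genes that set the gates, so this was partly fixed by the gating. The 8 macrophage markers summed to 7631, 8248, 12443 and 14985 CPM in the macrophage gate and to 50.7, 50.2, 59.75 and 62.3 CPM in the tumour gate. The 5 tumour epithelial markers summed to 6416, 6110, 7492 and 8084 CPM in the tumour gate. The gap was smaller for the 8 dendritic markers, at 2389, 2542, 2422 and 2310 CPM in the dendritic gate and 506, 621, 391 and 333 CPM in the T gate.

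Because HIF is a known regulator of many of these genes, their promoters were searched for the DNA core that HIF recognises, most often ACGTG. It was searched on both strands (as ACGTG and as CACGT, counting overlapping hits once) in the 250 bases before each start listed by RefSeq on GRCm38.p6. RefSeq windows were matched for 32 of the 34 genes, all but Slc2a3 and Ndrg1. The core was in 22 of their 47 windows (46.8%) and in 5444 of the 32851 windows of all genes (16.6%). Counted by gene, 19 of 32 members (59.4%) had it before at least 1 start, as did 18.5% of all 27025 genes. A match is a description of letters, not evidence of binding. The members were chosen by name as glycolysis and hypoxia genes, so their larger share is no test of control by HIF. The windows of 4 members are shown 5' to 3' on the gene's strand with the core in capitals. The 4 were chosen, after the values were seen, as those with the largest difference between Arg1-high and Arg1-low macrophages among windows that hold the core and overlap no annotated exon. Egln3 encodes an oxygen-sensing prolyl hydroxylase that HIF itself induces, Pgk1 and Pgam1 encode lower-glycolysis enzymes, and Ldha encodes the lactate dehydrogenase A subunit.
Egln3, chr12:54203875-54204124, minus strand: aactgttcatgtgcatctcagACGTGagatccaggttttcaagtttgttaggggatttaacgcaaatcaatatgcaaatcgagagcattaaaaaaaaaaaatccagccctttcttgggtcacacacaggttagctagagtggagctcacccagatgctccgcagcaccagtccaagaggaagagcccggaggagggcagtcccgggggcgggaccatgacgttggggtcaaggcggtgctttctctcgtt
Pgk1, chrX:106186850-106187099, plus strand: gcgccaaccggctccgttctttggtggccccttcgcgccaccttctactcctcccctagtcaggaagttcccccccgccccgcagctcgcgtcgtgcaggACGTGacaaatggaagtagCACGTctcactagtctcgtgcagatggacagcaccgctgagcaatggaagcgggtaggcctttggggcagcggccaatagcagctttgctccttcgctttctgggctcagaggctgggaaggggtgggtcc
Pgam1, chr19:41911621-41911870, plus strand: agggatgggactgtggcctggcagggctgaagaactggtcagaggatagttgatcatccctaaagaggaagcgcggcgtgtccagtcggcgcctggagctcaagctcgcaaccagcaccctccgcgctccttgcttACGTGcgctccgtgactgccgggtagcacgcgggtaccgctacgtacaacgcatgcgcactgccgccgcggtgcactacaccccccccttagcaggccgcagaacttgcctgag
Ldha, chr7:46845554-46845803, plus strand: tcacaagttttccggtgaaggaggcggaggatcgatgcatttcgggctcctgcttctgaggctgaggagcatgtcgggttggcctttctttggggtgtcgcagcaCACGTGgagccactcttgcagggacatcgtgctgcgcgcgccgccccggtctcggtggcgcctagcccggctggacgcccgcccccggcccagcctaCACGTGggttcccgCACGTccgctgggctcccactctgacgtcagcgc
The Egln3 window has its core 229 bases before the start, Pgk1 has it at 150 and 131 bases, Pgam1 at 114 bases, and Ldha at 145, 48 and 34 bases. In Ldha 2 of the 3 runs are the palindrome CACGTG. The Ldha window precedes an upstream RefSeq start and lies inside the gene as GENCODE vM21 draws it (chr7:46841475-46855627).

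Arg1-high macrophages held more RNA of most of these genes than Arg1-low macrophages of the same library, from the hexokinases to lactate export. Arg1 encodes arginase 1, an enzyme of alternatively activated and tumour-associated macrophages that hypoxia can also induce. Counts were summed over the Arg1-high and the Arg1-low cells of each library, and edgeR's quasi-likelihood test with the library as a block (8 sums, Benjamini-Hochberg adjustment over 11721 genes) asked for a difference common to the 4 libraries. The libraries differ in treatment, and the p-values measure the spread between them. Of the 34 members, 27 were higher and 2 lower in Arg1-high cells at an adjusted p under 0.05. Over all genes tested, 12.7% were higher and 12.8% lower. The median log2 difference was 0.75 over the members and -0.01 over all genes. Arg1-high cells made up 19.8%, 26.9%, 18.7% and 16.2% of the macrophage gate. With every cell thinned to 1000 UMIs, 14.9%, 19.9%, 11.7% and 10.7% of macrophage-gate cells kept an Arg1 UMI, against 0.669%, 0.871%, 0.32% and 0.643% of T-gate cells outside the macrophage gate.

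Among the hypoxia-induced genes, Adm, which encodes the vasodilator peptide adrenomedullin, had the largest difference. It stood at 6.57, 2.89, 3.32 and 8.02 CPM in Arg1-high and at 0.7635, 0.699, 0.938 and 0.9595 CPM in Arg1-low cells, a log2 difference of 2.61 ± 0.28 (SE), adjusted p = 0.000307 (edgeR). All 4 Arg1-high values lay above all 4 Arg1-low values, at low counts. Egln3 (chr12:54178981-54203860) stood at 23.5, 24.6, 16.7 and 18 CPM in Arg1-high and at 6.58, 6.15, 7.58 and 4.88 CPM in Arg1-low cells, a log2 difference of 1.80 ± 0.14 (SE), adjusted p = 7.61e-05 (edgeR). Bnip3 (chr7:138890836-138909519), which encodes a protein that marks mitochondria for removal, stood at 209, 198, 184 and 223 CPM and at 64.4, 74.3, 90.3 and 65.5 CPM, a log2 difference of 1.57 ± 0.11 (SE), adjusted p = 4.77e-05 (edgeR). The Arg1-high and Arg1-low values did not overlap in either gene. Hilpda (chr6:29272488-29275446) encodes a lipid-droplet protein that blocks the breakdown of stored fat. Its level was 380.4, 375, 653 and 468.5 CPM in Arg1-high and 119.8, 145, 295 and 153 CPM in Arg1-low cells, a log2 difference of 1.54 ± 0.09 (SE), adjusted p = 2.21e-05 (edgeR). Within each library the Arg1-high level was 2.21 to 3.18 times the Arg1-low level. Vegfa, the growth factor that draws in blood vessels, stood at 273, 269.9, 257.5 and 264.5 CPM against 139, 192, 182 and 144 CPM, a log2 difference of 0.80. Ndrg1, a stress-induced gene named for its regulation by N-myc, differed less, by 0.44 on the log2 scale. Ankrd37, an ankyrin-repeat gene induced by HIF, did not pass, with 0.60 ± 0.19 (SE), adjusted p = 0.0539 (edgeR).

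All 6 lower-glycolysis enzymes were higher, by 0.66 to 1.23 on the log2 scale. Gapdh, the dehydrogenase that opens the energy-yielding steps of the pathway, stood at 2091, 2112, 2084 and 2373 CPM in Arg1-high and at 1105, 1286, 1434 and 1379 CPM in Arg1-low cells. Its log2 difference was 0.83 ± 0.06 (SE), adjusted p = 6.29e-05 (edgeR), and the lowest Arg1-high value exceeded the highest Arg1-low value. Pkm, pyruvate kinase, differed by 0.83, Pgk1, phosphoglycerate kinase, by 0.87, Pgam1, phosphoglycerate mutase, by 0.82, and Eno1, the common enolase, by 0.66. Eno2, the enolase best known from neurons, stood at 10.03, 11.1, 13.2 and 11.4 CPM against 3.935, 4.29, 8.41 and 4.44 CPM. In upper glycolysis 5 of 7 members were higher: Aldoc (1.37) and Aldoa (0.75), which encode aldolases, Tpi1 (0.87), triosephosphate isomerase, Gpi1 (0.63), glucose-6-phosphate isomerase, and Pfkl (0.79), the liver-type phosphofructokinase. The muscle and platelet types did not pass, with log2 differences of 0.21 (adjusted p = 0.45) for Pfkm and 0.13 (adjusted p = 0.157) for Pfkp (edgeR). Of the 3 hexokinases, Hk3 stood at 212, 226, 211 and 172 CPM against 143, 143.5, 151 and 114 CPM and differed by 0.67, while Hk1 and Hk2 differed by only 0.26 and 0.27. Pfkfb3, which makes the activator of phosphofructokinase, differed by 0.23, and its relative Pfkfb4 had a value of 0.05 (adjusted p = 0.699) (edgeR).

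At the ends of the pathway the transporters split. Slc2a1, the widespread glucose transporter GLUT1, stood at 156, 189, 160.5 and 139.8 CPM in Arg1-high and 110.3, 124, 132 and 94.2 CPM in Arg1-low cells, a log2 difference of 0.58 ± 0.06 (SE), adjusted p = 0.000212 (edgeR). Slc2a3, which encodes the high-affinity transporter GLUT3, went the other way, at 1.82, 1.89, 1.25 and 1.23 CPM against 4.875, 4.75, 3.79 and 3.2 CPM, a log2 difference of -1.33 ± 0.18 (SE), adjusted p = 0.00107 (edgeR). Its macrophage-gate level was 2.79 to 4.13 CPM, and in cells that passed no other gate it was 2.77, 1.61, 1.01 and 1.15 CPM. In those cells its call was lost, as it was with macrophages thinned to equal depth and split again (log2 difference -0.08). Slc16a3, the lactate exporter MCT4, was higher by 0.76, and Slc16a1, the transporter MCT1, had a value of -0.02 (adjusted p = 0.931) (edgeR). Ldha stood at 1161, 1115, 1008 and 1121 CPM against 671, 700.1, 700.4 and 661 CPM, a log2 difference of 0.78 ± 0.06 (SE), adjusted p = 4.58e-05 (edgeR), with no overlap. Ldhb, the subunit that favours the reverse reaction, was lower, at -0.47 (adjusted p = 0.0404) in edgeR's test. That value turned to 0.12 with stricter gates and to 0.18 in cells that passed 1 gate only. Pdk1, a kinase that restrains the oxidation of pyruvate in the mitochondria, was higher by 0.75.

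Of the oxygen-sensing genes, Egln1 was higher by 0.77. Hif1a (chr12:73901375-73947530) differed little, at 660.3, 701, 428 and 325 CPM in Arg1-high and 560, 606, 414 and 328.5 CPM in Arg1-low cells, higher in Arg1-high cells in 3 of 4 libraries. The log2 difference was 0.22 ± 0.05 (SE), adjusted p = 0.0152 (edgeR), and leaving out the control or the phenformin library, or scaling by library totals, ended this call. The calls of Hk1 and Ldhb were each lost without the control, the phenformin or the combination library and with DESeq2, and that of Hk1 also with library totals and in cells that passed 1 gate only.

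Genes of neighbouring pathways were counted in the same fit. Of 30 further hypoxia genes, 20 were higher and 3 lower (median log2 difference 0.46), led by Stc2 (2.57), which encodes stanniocalcin 2, P4ha2 (1.76), a collagen prolyl hydroxylase, and Ak4 (1.70), a mitochondrial adenylate kinase. Of the 7 genes of the pentose phosphate pathway, the branch that makes NADPH, 1 was higher and 1 lower (median 0.03). Of 23 genes of pyruvate entry and the TCA cycle, 1 was higher and 2 lower (median -0.05). Of 10 tested further glycolysis enzymes and regulators, 2 were higher and 2 lower. In the same comparison, all 8 dendritic markers, all 3 monocyte markers and 5 of 8 cycling genes were lower in Arg1-high cells, and 5 of 8 macrophage markers were higher. Their part in the difference was not tested. Arg1-high cells were also deeper (medians of 11253, 14167, 17716 and 13215.5 UMIs against 8867, 11359, 11331.5 and 9818). In a further fit, macrophages with at least 3000 UMIs were thinned to 3000 and then split at 1 Arg1 UMI instead of 3. In it 28 of the 29 calls were kept. With cells split as before and thinned to 1000 UMIs, 22 were kept, and Pfkfb3, Hk2, Ldhb and Hk1 were among those lost.

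**Figure D1:**
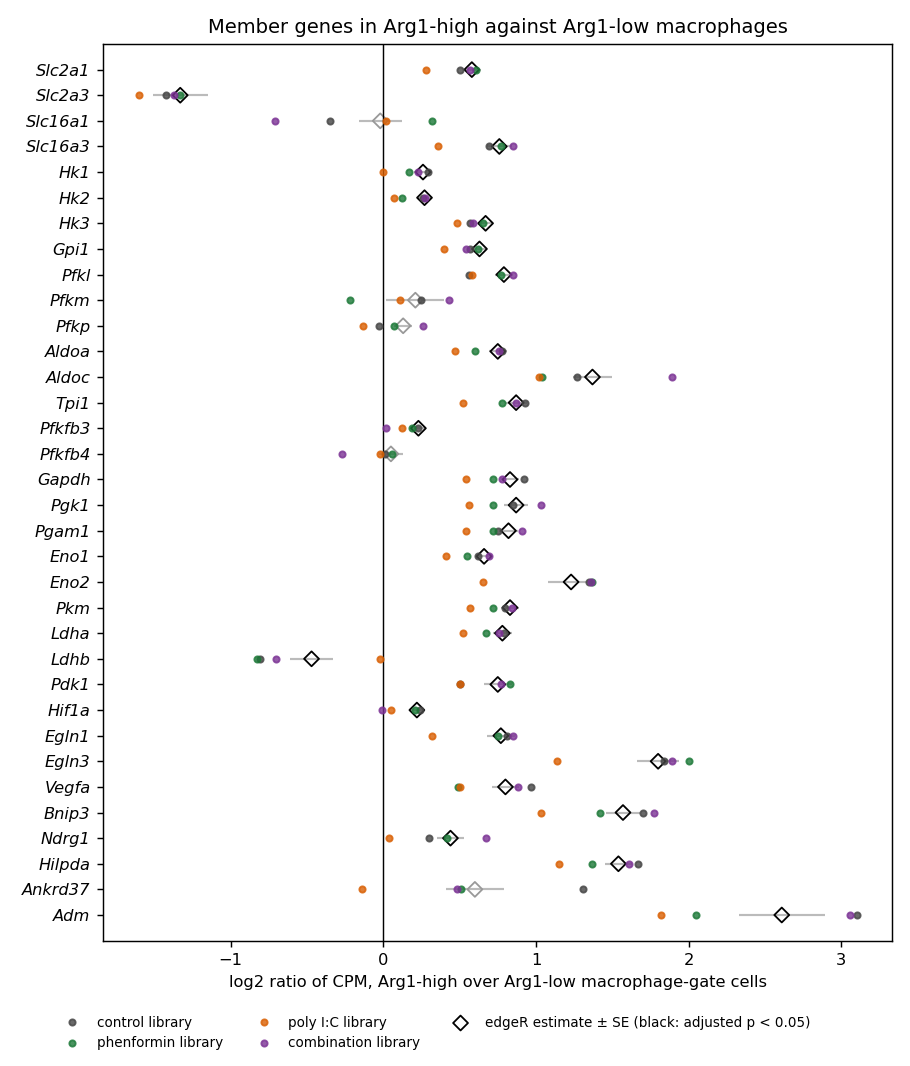
Log2 ratio of CPM in Arg1-high over Arg1-low macrophage-gate cells for the 34 members, grouped by role from transporters (top) to other hypoxia-induced genes (bottom). Filled points are single libraries and diamonds the edgeR estimates with their SE; most points lie right of 0, Adm has the largest estimate at 2.61, Slc2a3 lies at -1.33, and the poly I:C library has the smallest ratio in 26 rows.

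The Arg1-high over Arg1-low ratio was smallest in the poly I:C library for 26 of the 34 members (76.5%) and for 23.6% of the 11711 tested genes with a ratio in every library. Arg1, which set the split, also had its smallest ratio there, at 112, 92.2, 60.6 and 69.7, and the Arg1-high cells of that library were the deepest. Their part was not tested. Gapdh is one of them, at 1.89, 1.64, 1.45 and 1.72 in the 4 libraries, and Ldha another, at 1.73, 1.59, 1.44 and 1.7. Bnip3, at 3.24, 2.67, 2.04 and 3.4, also had its smallest ratio there, and so did Egln3, at 3.58, 4, 2.205 and 3.7. The size of the split between libraries was not tested, since each treatment has 1 library.

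The cell types differed in which part of the pathway they expressed. Each gate was compared with the mean of the other 4 over the 4 libraries by edgeR's quasi-likelihood test, with the library as a block, on 20 sums of cells that passed exactly 1 gate (13401 genes, Benjamini-Hochberg adjustment). Neutrophils had the strongest excess over the other types, with 21 of 34 members higher and 3 lower, where 18.5% of all genes were higher and 28.7% lower. The medians were 0.87 for the members and -0.58 for all genes. Here and for the other gates, member levels printed beside a difference are of all cells of a gate unless stated. They include cells that the test left out. In the neutrophil gate Hilpda stood at 1197, 979, 680.5 and 1198 CPM, and its log2 difference from the other gates was 5.33 ± 0.17 (SE), adjusted p = 2.99e-16 (edgeR). In cells that passed no other gate it stood at 1814, 1697, 1472 and 2116 CPM, against 15.35, 14.4, 23.5 and 15.4 CPM in the tumour gate. Every neutrophil value lay above every value of the other 4 gates. Slc2a3 (chr6:122727809-122801640) stood at 73.3, 85, 30.1 and 61.3 CPM, with a log2 difference of 5.39 ± 0.27 (SE), adjusted p = 6.27e-13 (edgeR).

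Several more genes of glucose entry, its control and lactate exit were high in neutrophils. Hk3, the hexokinase of leukocytes, was higher by 4.04, Hk2 by 2.34 and Hk1 by 1.79 on the log2 scale. Pfkfb3 stood at 187, 167, 103 and 169 CPM and was higher by 3.1, and Pfkfb4 by 2.98. Slc16a3 stood at 462, 389, 273 and 481 CPM and was higher by 3.14. Slc2a1 was higher by 2.38, Bnip3 by 3.07, Ankrd37 by 3.44 and Egln3 by 3.27. The enzymes in between differed less: Gapdh and Ldha did not pass, with log2 differences of 0.23 (adjusted p = 0.201) and 0.14 (adjusted p = 0.387) (edgeR), and Pkm was higher by 1.17. Slc16a1, Ldhb and Ndrg1 were lower, at -2.98, -1.37 and -0.55, and the last of these values turned to 0.09 with cells counted in every gate they pass. Of the 23 genes of pyruvate entry and the TCA cycle, 20 were lower in neutrophils and none higher, led by Fh1 (-1.69), Idh3b (-1.68) and Cs (-1.60), which encode fumarase, an isocitrate dehydrogenase subunit and citrate synthase. Of 30 further hypoxia genes, 14 were higher and 2 lower. The neutrophil gate was the shallowest, with medians of 1984 to 2530 UMIs per cell. In it 5 of the 10 dissociation and stress genes and 7 of the 8 macrophage markers were higher. The 8 macrophage markers summed to 552, 681, 456 and 668 CPM in neutrophils that passed no other gate. Their part in the difference was not tested.

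Macrophages had 19 members higher and 3 lower than the mean of the other gates, where 39.7% of all genes were higher and 18.1% lower. Hk3 stood at 160.2, 169.6, 167 and 126 CPM in the macrophage gate and at 0.708, 0.623, 0.371 and 0.367 CPM in the tumour gate, a log2 difference from the other 4 gates of 4.87 ± 0.14 (SE), adjusted p = 3.97e-17 (edgeR). Vegfa stood at 172, 217, 201 and 169 CPM, a difference of 1.91 ± 0.13 (SE), adjusted p = 8.81e-11 (edgeR), and Hif1a at 584, 636, 418 and 328 CPM, a difference of 1.55 ± 0.12 (SE), adjusted p = 4.51e-10 (edgeR). Slc2a1 stood at 121.5, 144, 139 and 104 CPM, a difference of 0.53. Gapdh and Ldha did not pass, at 0.20 (adjusted p = 0.242) and 0.13 (adjusted p = 0.367) (edgeR). Slc2a3 (-2.49), Egln3 (-0.83) and Ldhb (-0.67) were lower. With DESeq2, 14 of the 22 calls were kept, and 11 members were higher and 6 lower. Of the pyruvate and TCA genes 18 of 23 were higher in macrophages and 1 lower. Of the further hypoxia genes 12 of 30 were higher, led by Hmox1 (3.22), haem oxygenase 1, and 8 lower.

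Tumour cells had 20 members higher and 7 lower, where 42.1% of all genes were higher and 32.1% lower. Ldha stood at 1543, 1505, 1574 and 1857 CPM, a log2 difference of 1.07 ± 0.11 (SE), adjusted p = 3.56e-08 (edgeR), and Gapdh at 2167, 2515, 2555 and 2920 CPM, a difference of 0.76 ± 0.13 (SE), adjusted p = 3.42e-05 (edgeR). All 4 tumour values of both genes lay above every value in the other gates. Also higher were Pgk1 (1.57), Eno1 (1.49), Ldhb (1.82), Slc16a1 (1.59), Egln3 (1.39), Egln1 (1.24) and Vegfa (1.84), which stood at 235, 285.5, 229 and 193 CPM. Slc2a1 stood at 149.9, 217, 159.5 and 170.3 CPM and was higher by 0.68. Other members were low in tumour cells, with log2 differences of -6.05 for Hk3, -5.96 for Slc2a3, -3.71 for Hilpda and -3.65 for Pfkfb3. Hif1a stood at 87.7, 73.2, 60.9 and 64.55 CPM and was lower, with a log2 difference of -2.24 ± 0.15 (SE), adjusted p = 4.35e-11 (edgeR). Of the further hypoxia genes 18 of 30 were higher, led by Lox (5.15) and Plod2 (3.61), which modify collagen, and Car12 (4.11), a carbonic anhydrase, and 9 were lower. The CD45 enrichment selects against these cells, so the tumour gate holds those that came through it.

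T cells had 3 members higher and 21 lower, where 38.7% of all genes were higher and 23.8% lower. Those higher were Slc2a3, at 26.55, 22.5, 22.1 and 18.8 CPM with a log2 difference of 2.32 ± 0.19 (SE), adjusted p = 2e-09 (edgeR), Slc16a1 (1.89) and Hif1a, at 626, 609, 485 and 432.5 CPM with 1.52 ± 0.12 (SE), adjusted p = 6.85e-10 (edgeR). Among the lower members, the log2 differences were -2.83 for Pfkfb4, -2.54 for Vegfa, -2.45 for Ldhb and -2.36 for Hk3. Slc2a1 stood at 58.8, 62.3, 69.98 and 60.7 CPM, a log2 difference of -1.39. Gapdh, at 1452, 1528, 1651 and 1770 CPM, and Ldha, at 802, 772, 722.5 and 776 CPM, did not pass, with log2 differences of 0.05 (adjusted p = 0.816) and -0.19 (adjusted p = 0.179) (edgeR). The log2 difference of Hk3 turned to 0.16 when cells were counted in every gate they pass. All 8 cycling genes were higher in T cells, and 24 of the 24 member calls were kept without cells that held a UMI of Mki67 or Top2a. With strict gates 20 were kept (Tpi1, Aldoa, Ankrd37 and Ndrg1 were lost), and with cells thinned to 1000 UMIs 19. T-gate cells that passed no other gate also held a fibroblast list at 75.7, 180.2, 391 and 242 CPM. Their dendritic list stood at 506, 621, 391 and 333 CPM, and the part of both lists was not tested.

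Dendritic cells had the lowest levels, with 2 members higher and 23 lower, where 22.4% of all genes were higher and 16.6% lower, and a median of -1.41 over the members against 0.03. Gapdh stood at 899.9, 899, 1076 and 944 CPM, a log2 difference of -1.23 ± 0.15 (SE), adjusted p = 1.58e-06 (edgeR), and Ldha at 536.5, 529, 549 and 507 CPM, a difference of -1.15 ± 0.13 (SE), adjusted p = 4.97e-07 (edgeR). Of the 6 other hypoxia-induced genes 4 were lower, with log2 differences of -3.13 for Bnip3, -3.1 for Hilpda, -2.70 for Vegfa and -2.51 for Ankrd37, while Ndrg1 and Adm did not pass, at -0.01 (adjusted p = 0.982) and -0.64 (adjusted p = 0.523) (edgeR). The log2 differences of Egln3, Slc16a3, Slc2a1 and Hif1a were -2.77, -2.43, -2.20 and -1.57. The 2 higher members were Ldhb, at 78.5, 92.6, 92.4 and 154 CPM with 2.68 ± 0.19 (SE), adjusted p = 3.43e-10 (edgeR), and Pfkfb3, at 118, 68.8, 67 and 105.5 CPM with 1.37 ± 0.15 (SE), adjusted p = 3.4e-07 (edgeR). Of the pyruvate and TCA genes 4 of 23 were higher and none lower, and of the further hypoxia genes 3 of 30 were higher and 19 lower.

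**Figure D2:**
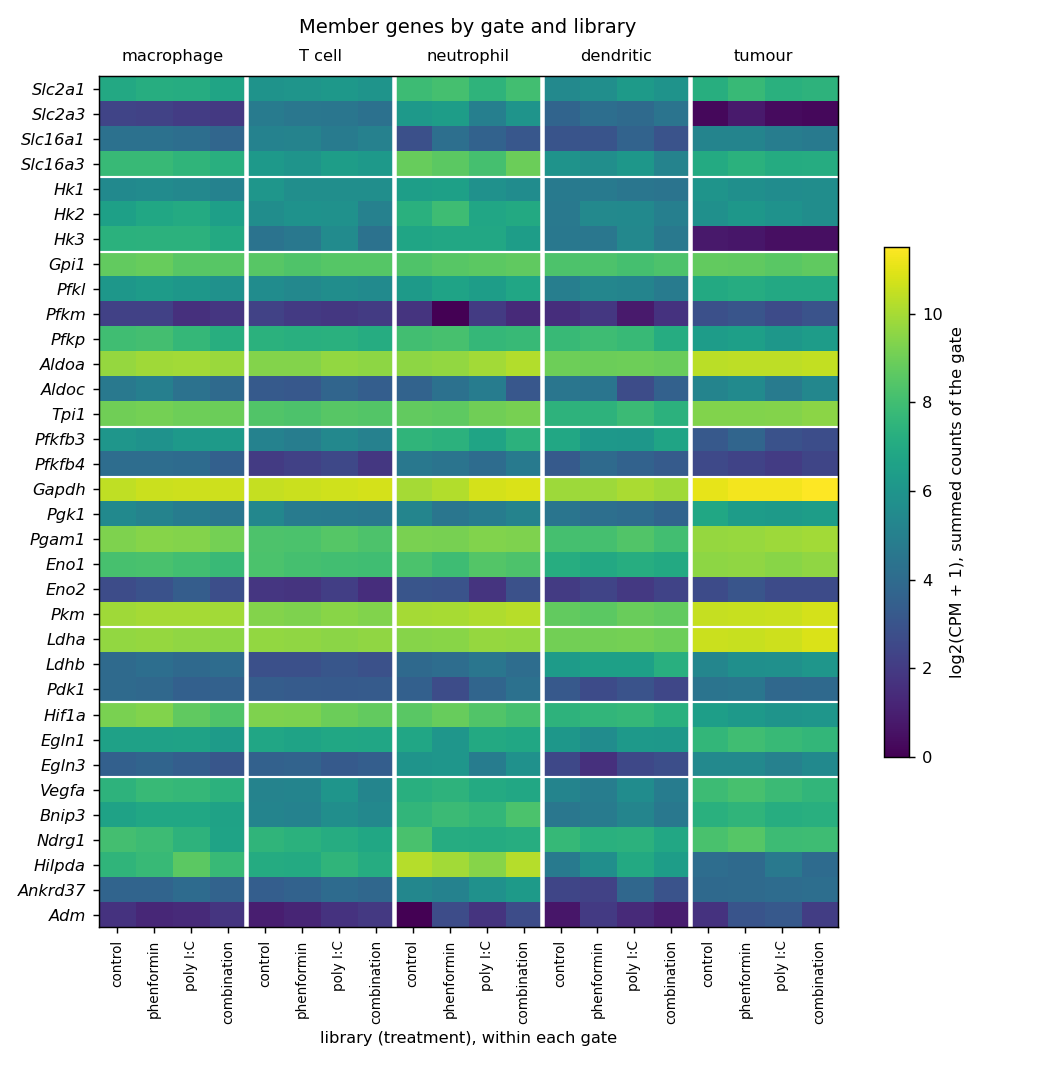
Level of each member, as log2(CPM + 1) of the summed counts, in the 5 gates (blocks of columns) and 4 libraries (columns within a block), with members grouped by role (white lines). Hilpda and Slc2a3 are brightest in the neutrophil gate, Ldha and Gapdh in the tumour gate, Hk3 and Slc2a3 are darkest in the tumour gate, and most members are darker in the dendritic gate.

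The order of the gates is given for 3 members in cells that passed 1 gate only. Hif1a was highest in the macrophage (325 to 655 CPM) and T gates (445 to 634 CPM), whose ranges overlapped. The neutrophil gate (156 to 349 CPM) overlapped the macrophage gate but not the T gate, and the dendritic (83.5 to 137 CPM) and tumour gates (60.9 to 88.4 CPM) were lower and overlapped each other. Slc2a1 was ordered neutrophil (217 to 398 CPM), tumour (149.5 to 214 CPM), macrophage (106 to 149.8 CPM), T (48.0 to 53.4 CPM) and dendritic (31.0 to 46.2 CPM), where of the neighbours the tumour and macrophage gates overlapped. Vegfa was highest in the tumour (193 to 284 CPM) and macrophage gates (182 to 231 CPM), which overlapped, then in neutrophils (87.9 to 163 CPM), and low in the T (16.7 to 22.8 CPM) and dendritic gates (11.8 to 26.7 CPM), which overlapped.

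Few of the members compared differed by 1.5-fold or more between treatments in the macrophage, T and tumour gates, at most 5 in any comparison. More did in the neutrophil and dendritic gates, at most 8. The share of all genes past 1.5-fold differed between gates as well. Per comparison, 7.7% to 22.2% were higher and 10.6% to 18.7% lower in neutrophils. In the dendritic gate these shares were 2.61% to 8.25% and 3.97% to 10.2%. They were 0.496% to 5.53% and 0.45% to 16.1% in the macrophage, T and tumour gates. A member was compared where it reached at least 20 CPM and 50 UMIs in at least 1 library of the gate, and it counts as higher or lower at a ratio of at least 1.5-fold. Phenformin and the combination were each set against the library without phenformin (control and poly I:C), and poly I:C and the combination against the library without poly I:C (control and phenformin). Ratios that share a library are not independent.

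In macrophages 24 of 34 members were compared. With phenformin over control, no member was 1.5-fold higher or lower, where 0.496% of 5844 genes were higher and 0.633% lower. The median log2 ratio was 0.11 over the members and -0.03 over all genes, and 21 of the 24 ratios were above 1. No share of all genes above 1 is given beside that count, so it is not read as a result about the members. Gapdh stood at 1345, 1549, 1602 and 1584 CPM, a phenformin ratio of 1.15 (95% interval 1.135 to 1.17). Vegfa stood at 172, 217, 201 and 169 CPM, a ratio of 1.265 (95% interval 1.22 to 1.32). Hk2, the inducible hexokinase, stood at 92.7, 117, 131 and 90.03 CPM, a ratio of 1.26 (95% interval 1.19 to 1.33). The macrophages of the phenformin library also held more Arg1-high cells, and with Arg1-high and Arg1-low cells weighted equally the median log2 ratio came to 0.05.

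When phenformin was added to poly I:C, the ratios lay mostly below 1. Of the 24 members 23 had a combination over poly I:C ratio below 1. No share of all genes below 1 is given, so this count is not read as a result about the members. The median log2 ratio was -0.28 over the members and 0.06 over all genes. At least 1.5-fold lower were 2 members, and none was higher (1.4% of all genes were lower and 1.04% higher). Those were Hilpda and Ndrg1 (chr15:66929318-66969640). Hilpda stood at 183, 218.5, 387 and 218 CPM, with poly I:C alone highest and the other 3 libraries between 183 and 219 CPM. Its ratios were 2.11 (95% interval 2.04 to 2.19) for poly I:C over control and 0.563 (95% interval 0.547 to 0.579) for the combination over poly I:C. Ndrg1 stood at 267, 238, 174 and 103 CPM, highest in control and lowest in the combination, with a combination over poly I:C ratio of 0.589 (95% interval 0.565 to 0.615). In Arg1-low cells the median log2 ratio was -0.36 and in Arg1-high cells 0.04, and weighting both equally gave -0.12.

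With poly I:C over control, Hilpda was the 1 member at least 1.5-fold higher, and Pgk1 and Ndrg1 were lower (2.79% of all genes were higher and 4.19% lower). Pgk1 stood at 43.1, 34.2, 27.4 and 22.7 CPM, a ratio of 0.635 (95% interval 0.581 to 0.694). With the combination over phenformin 5 members were lower and none higher (3.71% and 3.97% of all genes), with a median of -0.37 against 0.00. Hif1a stood at 584, 636, 418 and 328 CPM. Both libraries with poly I:C lay below both libraries without it, with ratios of 0.7145 (95% interval 0.698 to 0.731) for poly I:C over control and 0.516 (95% interval 0.503 to 0.528) for the combination over phenformin. Pfkp, at 252, 266, 202 and 150 CPM, and Aldoc, at 24, 30.7, 19.2 and 14.9 CPM, had combination over phenformin ratios of 0.565 and 0.483, and those of Ndrg1 and Pgk1 were 0.431 and 0.664. Ldha, at 791, 832, 779.7 and 755 CPM, and Slc2a1, at 121.5, 144, 139 and 104 CPM, stayed within 1.5-fold in all 4 comparisons. Among the further hypoxia genes in macrophages, 3 of 20 were higher with poly I:C over control and none lower. The one with the largest ratio was Plin2, which coats lipid droplets as the Hilpda protein also does, at 323, 359, 624.5 and 506 CPM with a ratio of 1.93 (95% interval 1.88 to 1.985).

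In T cells 25 members were compared. With phenformin over control none was 1.5-fold higher or lower (0.66% and 1.4% of 6060 genes), with a median of -0.09 against -0.08 over all genes. Hif1a stood at 626, 609, 485 and 432.5 CPM. As in macrophages, both libraries with poly I:C lay below both without it, here within 1.5-fold, with ratios of 0.775 (95% interval 0.753 to 0.797) for poly I:C over control and 0.71 (95% interval 0.6905 to 0.7305) for the combination over phenformin. Gapdh stood at 1452, 1528, 1651 and 1770 CPM and was highest in the combination, Ldha stood at 802, 772, 722.5 and 776 CPM, and Slc2a1 at 58.8, 62.3, 69.98 and 60.7 CPM. With poly I:C over control Hk3 and Vegfa were higher and Pgk1 lower (5.53% and 7.66% of all genes). With the combination over poly I:C Hk2, Hk3 and Vegfa were lower and none higher (2.61% and 0.644%), and with the combination over phenformin Hk2 was lower and none higher (1.63% and 3.4%).

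In the T gate Hk3 stood at 19.8, 23.7, 46.1 and 19.25 CPM and Vegfa at 34.8, 35.4, 64.1 and 36.7 CPM, both highest in the poly I:C library and similar in the other 3. The 8 macrophage markers in the T gate summed to 895, 872, 2784 and 2163 CPM, high in both libraries with poly I:C. Their part in the levels of Hk3 and Vegfa was not tested. In T-gate cells that passed no other gate, these markers summed to 123, 117, 177 and 232 CPM, Hk3 stood at 3.66, 3.76, 3.62 and 2.63 CPM and Vegfa at 21, 16.7, 22.8 and 17.4 CPM. The poly I:C over control log2 ratio of Hk3 was -0.02 in those cells and that of Vegfa 0.12. Hk2 stood at 48.4, 57.1, 55.7 and 31.9 CPM in all T-gate cells and at 42.9, 53.7, 30.6 and 21.5 CPM in those that passed no other gate, lowest in the combination in both. Its combination over phenformin ratio was 0.558 (95% interval 0.505 to 0.616). Hilpda stood at 135, 131, 182 and 137 CPM in all T-gate cells and at 124, 126, 121 and 123 CPM in those that passed no other gate, where its level was even across libraries.

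Neutrophil ratios rested on 740876 to 1692971 UMIs per library and stood against a high background. With phenformin over control 1 of 25 members was higher and 2 lower (7.7% and 10.6% of 4426 genes). Hk2 was the higher one, at 159.7, 243, 112 and 125 CPM with a ratio of 1.52 (95% interval 1.21 to 1.92), and Ndrg1, at 294.5, 139, 133 and 144 CPM, and Egln1, at 110, 66.1, 128 and 115 CPM, were lower. In neutrophils that passed no other gate neither was 1.5-fold lower: Ndrg1 stood at 112, 85.8, 87.9 and 110 CPM and Egln1 at 46.6, 36, 129 and 84.95 CPM. The median log2 ratio was 0.09 against -0.06.

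With the combination over poly I:C, 6 members were higher and none lower, where 8.1% of all genes were higher and 18.7% lower. Hilpda stood at 1197, 979, 680.5 and 1198 CPM, lowest with poly I:C alone, the reverse of its order in macrophages. Its ratio was 1.76 (95% interval 1.63 to 1.9). In neutrophils that passed no other gate it stood at 1814, 1697, 1472 and 2116 CPM, still lowest with poly I:C alone, and its log2 ratios of 0.52 for the combination over poly I:C and -0.30 for poly I:C over control were both under 1.5-fold. Slc16a3 stood at 462, 389, 273 and 481 CPM, again lowest with poly I:C alone, with a ratio of 1.76 (95% interval 1.56 to 1.99). Slc2a3 had a ratio of 2.04 (95% interval 1.41 to 2.95), Egln3, at 60.3, 64.8, 27.2 and 55.9 CPM, of 2.06 (95% interval 1.4 to 3.05), Pfkfb3 of 1.64 (95% interval 1.335 to 2.01), and Bnip3, at 189, 228, 199 and 303 CPM, of 1.52 (95% interval 1.31 to 1.765). The poly I:C library also had the most neutrophil-gate cells in other gates, and the macrophage markers in this gate summed to 1734, 3326, 5077 and 6088 CPM. In neutrophils that passed no other gate Slc16a3 stood at 645, 551, 349 and 803 CPM, Slc2a3 at 116, 111, 61 and 137 CPM and Egln3 at 74.5, 113.5, 53.7 and 83 CPM, each still lowest with poly I:C alone. The tumour epithelial markers in those neutrophils summed to 603, 13.8, 1081 and 29 CPM, highest with poly I:C alone. Their part in the neutrophil ratios was not tested.

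With poly I:C over control 1 member was higher and 7 lower (22.2% and 14.1% of all genes). In neutrophils that passed no other gate 8 members were higher and 8 lower. No share over all genes is given for those cells, so these counts are not read as a result about the members. In all neutrophil-gate cells Gapdh was the higher one, at 1001, 1161, 1757 and 1861 CPM with a ratio of 1.76 (95% interval 1.63 to 1.9). Both libraries with poly I:C lay above both without it, in neutrophils that passed no other gate as well (847, 999, 1796 and 1929 CPM). The lower ones were Slc2a3, Hk1, Pfkfb3, Slc16a3, Ndrg1, Hilpda and Egln3, with ratios from 0.411 to 0.628. With the combination over phenformin 3 were higher and 3 lower (11.6% and 12.5%). Gapdh had a ratio of 1.6 (95% interval 1.48 to 1.735), and Egln1 and Ankrd37, at 39, 33.7, 56.1 and 76.1 CPM, were the other two higher. Hk1, at 87.5, 93.1, 54.9 and 47.35 CPM, Hk2 and Hif1a, at 383, 452, 330.2 and 277 CPM, were lower. In neutrophils that passed no other gate 10 members were higher and 2 lower, again without a share over all genes beside them. Hif1a stood at 338, 349, 156 and 239 CPM there and was within 1.5-fold for the combination over phenformin. It was lowest with poly I:C alone, over 1.5-fold below both control and the combination. Ldha, at 691, 717, 827 and 793 CPM, Slc2a1, at 235, 275, 179.6 and 262 CPM, and Vegfa, at 154, 174, 132 and 118 CPM, stayed within 1.5-fold in all 4 comparisons. In neutrophils that passed no other gate they did not: there Ldha, at 545, 562, 923 and 768 CPM, was over 1.5-fold higher with poly I:C over control, Slc2a1, at 293, 363, 217 and 398 CPM, was over 1.5-fold higher with the combination over poly I:C, and Vegfa, at 149, 163, 87.9 and 147 CPM, was lowest with poly I:C alone by over 1.5-fold. The 10 dissociation and stress genes summed to 4577, 4254, 2523 and 2850 CPM in this gate, lower in both libraries with poly I:C. Their part in these ratios was not tested.

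In dendritic cells several treatment ratios changed direction once cells that passed another gate were left out. Of 25 members, 2 were higher and 1 lower with phenformin over control (2.61% and 5.2% of 6198 genes), 3 higher and 5 lower with the combination over poly I:C (6% and 3.97%), 5 higher and 2 lower with poly I:C over control (5.76% and 10.2%), and 3 higher and 2 lower with the combination over phenformin (8.25% and 4.11%). Macrophage markers in this gate summed to 786.5, 817, 1890 and 2647 CPM, and to 177, 168.5, 156 and 224 CPM in cells that passed no other gate. Tumour epithelial markers summed to 621, 63, 44.65 and 375 CPM in the latter cells, and their part was not tested. Hilpda stood at 26.2, 50.55, 127 and 85.1 CPM, a poly I:C over control ratio of 4.84 (95% interval 3.81 to 6.215), and at 15.75, 24.6, 47.4 and 12.8 CPM in cells that passed no other gate, where poly I:C alone was still highest. Slc2a1 stood at 42, 51.1, 75.6 and 59.85 CPM, and at 32.9, 32.7, 31 and 46.2 CPM in those cells, where its poly I:C over control log2 ratio was -0.09. The median log2 ratio of poly I:C over control, 0.19, turned to -0.35 in them. Pfkfb3 stood at 118, 68.8, 67 and 105.5 CPM, lower in both single treatments than in control and combination, and at 159, 104, 94.8 and 167 CPM in cells that passed no other gate, again lower in both single treatments. Ldhb stood at 78.5, 92.6, 92.4 and 154 CPM, highest in the combination, with a combination over poly I:C ratio of 1.67 (95% interval 1.41 to 1.98), and the B cell marker list was highest there too, at 9.54, 26.9, 53.8 and 143 CPM in cells that passed no other gate. Its part was not tested. Gapdh (899.9, 899, 1076 and 944 CPM), Ldha (536.5, 529, 549 and 507 CPM) and Hif1a (172, 188, 201 and 157 CPM) stayed within 1.5-fold, and Vegfa stood at 35.3, 28.2, 47.5 and 27.5 CPM.

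Of the members compared, tumour cells had the fewest past 1.5-fold. Slc2a3, Hk3, Pfkm, Pfkfb3, Pfkfb4, Eno2, Ankrd37 and Adm were below the filter and not compared. Of these, Adm stood at 2.23, 7.01, 8.17 and 3.31 CPM (22, 45, 132 and 36 UMIs). With phenformin alone and with poly I:C alone it was over 1.5-fold above control, at low counts. Of 26 members compared, none was 1.5-fold higher or lower with phenformin over control (0.634% and 2.77% of 5997 genes) or with poly I:C over control (1.5% and 16.1%). With the combination over poly I:C Hilpda was lower and none higher (0.45% and 0.534%), and with the combination over phenformin Pdk1 was lower and none higher (1.98% and 1.13%). Gapdh stood at 2167, 2515, 2555 and 2920 CPM, lowest in control and highest in the combination, with ratios of 1.16 (95% interval 1.14 to 1.18) for phenformin over control and 1.14 (95% interval 1.13 to 1.16) for the combination over poly I:C. Ldha stood at 1543, 1505, 1574 and 1857 CPM, highest in the combination, and its combination over poly I:C ratio was 1.18 (95% interval 1.16 to 1.2). Slc2a1 stood at 149.9, 217, 159.5 and 170.3 CPM, highest with phenformin alone, a phenformin over control ratio of 1.45 (95% interval 1.345 to 1.56). Vegfa stood at 235, 285.5, 229 and 193 CPM and Hif1a at 87.7, 73.2, 60.9 and 64.55 CPM, the latter highest in control. Hilpda stood at only 16.6, 14.65, 24.1 and 15.2 CPM, with poly I:C alone highest, and Pdk1 at 20.2, 22.3, 13.9 and 14.1 CPM. Without the cells that held Mki67 or Top2a the median log2 ratio of poly I:C over control moved from -0.03 to 0.15.

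**Figure D3:**
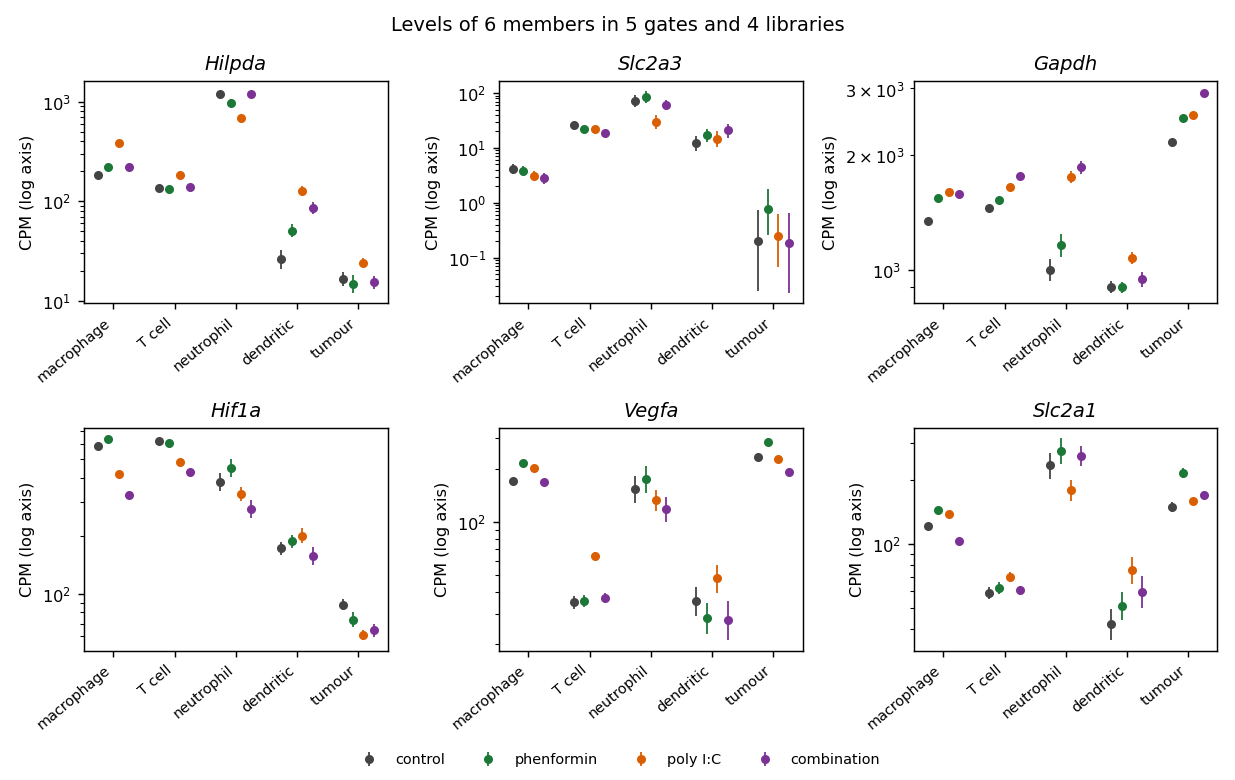
CPM of 6 members in the 5 gates, with 1 point per library (control, phenformin, poly I:C, combination from left to right) and 95% Poisson intervals on log axes. Hilpda is highest with poly I:C alone in the macrophage, T, dendritic and tumour gates (in the T gate only with cells that also pass another gate) and lowest with it in the neutrophil gate, and Hif1a is lower in both poly I:C libraries of the macrophage, T, neutrophil and tumour gates.

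**Figure D4:**
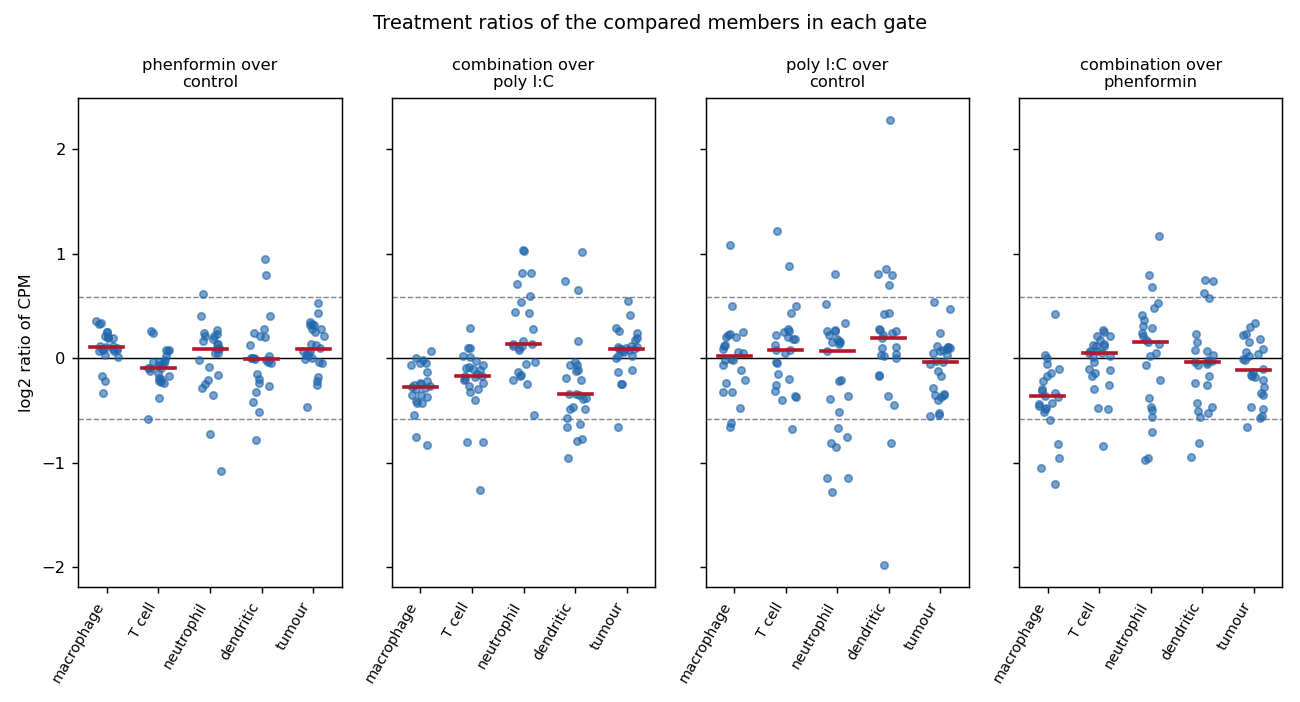
Log2 ratio of CPM for each compared member (points, spread sideways at random) in the 5 gates, with 1 panel per comparison, red bars at the medians and dashed lines at 1.5-fold. The macrophage median is -0.28 for the combination over poly I:C, and the points of the neutrophil and dendritic gates spread widest.

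Neighbouring pathways were read in the same way. With phenformin over control, none of the 20 further hypoxia genes, 22 genes of pyruvate entry and the TCA cycle and 6 pentose phosphate genes compared in macrophages passed 1.5-fold. Poly I:C over control left 1 of the 22 lower, Cs, at 84.5, 76.3, 55.4 and 61.3 CPM with a ratio of 0.656 (95% interval 0.616 to 0.699), and their median log2 ratio was -0.22 against -0.09 over all genes. Besides Plin2, the further hypoxia gene Hmox1, at 295.5, 287, 453 and 354 CPM, was higher in macrophages with poly I:C over control. Ero1l, an oxidase of the endoplasmic reticulum, stood at 138, 153, 131 and 99.4 CPM and was lower with the combination over phenformin, as the members Hif1a and Pfkp were. In the neutrophil gate Ero1l stood at 333.5, 354, 249 and 435 CPM, lowest with poly I:C alone as Hilpda, Slc16a3 and Slc2a3 were there, and its combination over poly I:C ratio was 1.75 (95% interval 1.54 to 1.99). In tumour cells none of 26 further hypoxia genes passed 1.5-fold with phenformin over control, and 1 was higher and 3 lower with poly I:C over control. The higher one was Ddit4, a stress-induced inhibitor of mTOR signalling, at 56.6, 56.7, 86.9 and 75.2 CPM.

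Across gates, Hilpda was highest with poly I:C alone in the macrophage, dendritic and tumour gates and lowest with it in neutrophils, in all cells of a gate and in those that passed no other gate. The difference in direction between gates was not tested. Gapdh was lowest in control in the macrophage, T, neutrophil and tumour gates, and in the dendritic gate control and phenformin were level. Pgk1 was highest in control in the macrophage, T, dendritic and tumour gates. In all kept cells together, 26 members were compared, and their median log2 ratio was 0.06 for phenformin over control, -0.16 for the combination over poly I:C, 0.07 for poly I:C over control and -0.15 for the combination over phenformin. The summed level of the 34 members was 8321, 9083, 8689 and 7695 CPM in the macrophage gate, 6678, 6480, 6942 and 6679 CPM in the T gate, 9274, 9308, 9520 and 10939 CPM in the neutrophil gate, 4506, 4416, 4974 and 4377 CPM in the dendritic gate and 10977, 11760, 11454 and 12609 CPM in the tumour gate.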

How the data were processed

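The 34 members and all gene lists were chosen with earlier results of these data known. Gene expression was measured with 10x Genomics 3' chemistry in 4 libraries, 1 per treatment. The deposited values are raw UMI counts per gene and barcode that the authors deposited. Per the file headers they come from Cell Ranger, version 3.1.0, and the submitters' processing notes name the builds mm10 and GRCm38. Only called barcodes were in the matrices. Aligner settings and annotation release are not stated there.

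Barcodes were kept as cells from 200 detected genes upward where mitochondrial UMIs stayed below 20%. They were gated on raw UMIs, and counts were summed per gate and library (59071838 to 77488625 UMIs per library, 1 library per treatment). No doublet caller was run. Levels are CPM with exact Poisson 95% intervals, and ratios have exact conditional 95% intervals, which cover counting error only. Features with at least 20 CPM and 50 UMIs in 1 of the 4 libraries were compared, and 1.5-fold counted as higher or lower.

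Cell sets were tested with edgeR 4.0.16 in R 4.3.3 (quasi-likelihood, TMM scaling, library as a block, Benjamini-Hochberg threshold 0.05), with DESeq2 1.42.0 as an alternative. Values were computed in Python 3.11.15 with numpy 2.4.6, scipy 1.17.1 and pandas 2.3.3, and figures drawn with matplotlib 3.10.9. On simulated counts for the Arg1 comparison (11809 genes), 99 of 100 genes changed 2-fold and 56 of 100 changed 1.5-fold were recovered, with 6 unchanged genes called. For the comparison of gates (12730 genes) these were 100 of 100, 95 of 100 and 7. The simulation used a fixed dispersion and a shared expression profile. It held no differences between treatments or, apart from the changed genes, between cell sets. It therefore does not measure recovery or false calls in these data. Library values are given for up to 4 members of a role group and gate with the largest ratios, and for Gapdh, Ldha, Slc2a1, Hif1a and Vegfa in every gate. Other lists are given by count and median with up to 3 genes of largest difference, except that Ddit4 was named after its values were seen. Gene positions are from GENCODE vM21 and promoter windows from RefSeq, both on GRCm38. Alternatives changed the cell filter, gates, scaling, depth, summing, cycling cells, filters, tool and libraries. Results for some genes are not reported here.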

Additional observations from a re-analysis of the deposited data

Results flagged for a closer look

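Hilpda had opposite directions in different gates. Its poly I:C over control ratio was 2.114 in macrophages and 4.842 in dendritic cells but 0.5685 in neutrophils. Its combination over poly I:C ratio was 0.563 in macrophages and 0.6316 in tumour cells but 1.761 in neutrophils. With 1 library per treatment the difference between gates was not tested. The 8 macrophage markers summed to 1734, 3326, 5077 and 6088 CPM in the neutrophil gate and to 786.5, 817, 1890 and 2647 CPM in the dendritic gate, and their part in these ratios was not tested. In cells that passed 1 gate only, poly I:C alone remained the highest library in dendritic cells and the lowest in neutrophils. In those neutrophils both ratios were under 1.5-fold, with log2 ratios of -0.30 for poly I:C over control and 0.52 for the combination over poly I:C. The tumour epithelial markers summed to 603, 13.8, 1081 and 29 CPM there, and their part was not tested.

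Slc16a3, the lactate exporter, had a combination over poly I:C ratio of 1.763 in neutrophils and 0.5136 in dendritic cells. Bnip3 had ratios of 1.521 and 0.6347 in the same 2 gates. These differences in direction were not tested either, and in dendritic cells that passed 1 gate only the log2 ratio of Bnip3 was 0.11.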

How the results depend on the processing

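The labels give no replicate numbers, so no replicate block was used. A fit of both agents as main effects over the 4 libraries was not run. The tests between cell sets already hold the library as a block.

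In the Arg1 comparison 22 to 29 of 29 calls were kept. Ldhb turned to 0.12 with strict gates and 0.18 in cells in 1 gate only. The lower count of 2 came to 0 with thinned cells or cells in 1 gate only, and to 1 with DESeq2, strict gates or equal depth. Leaving out single libraries gave 1 to 2 lower members. Of the macrophage gate's 19 higher and 3 lower members, DESeq2 called 11 and 6, thinning left 12 higher, and library totals or the strict cell filter (500 genes, 10% mitochondrial) gave 5 lower. Library totals gave 4 higher members in dendritic cells. The 3 lower neutrophil members became 1 with DESeq2, the strict cell filter or cells in every gate they pass, and 1 to 3 without single libraries. With cells in every gate they pass, Hk3 in T cells turned to 0.16 and Ndrg1 in neutrophils to 0.09.

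For the treatments there is no test, and the median log2 ratios of members moved as follows. TMM scaling gave 0.20 (phenformin over control) and 0.23 (poly I:C over control) in all cells, 0.01 for phenformin over control and 0.07 for combination over control in T cells, and 0.02 (combination over poly I:C) and 0.20 (poly I:C over control) in tumour cells. Without the deepest 5% of cells the combination over poly I:C came to -0.27 in all cells and 0.16 in tumour cells, and combination over control to 0.19 in tumour cells. Equal Arg1 weights gave 0.05 (phenformin over control) and -0.12 (combination over poly I:C) in macrophages. Without cycling cells these were 0.13 for combination over poly I:C in Arg1-high cells, -0.01 for phenformin over control in T cells and 0.15 for poly I:C over control in tumour cells. In cells in 1 gate only they were -0.03 for combination over poly I:C in both T and dendritic cells, 0.50 for combination over phenformin and 0.32 for combination over control in neutrophils, and -0.32, -0.35 and -0.30 in dendritic cells for phenformin, poly I:C and combination over control. Thinning to 1000 UMIs gave -0.09, 0.25, 0.65 and 0.56 in neutrophils (phenformin over control, poly I:C over control, combination over phenformin, combination over control) and -0.20, -0.11 and -0.30 in dendritic cells (phenformin, poly I:C and combination over control). The mean over cells gave 0.36 and 0.35 in neutrophils for combination over phenformin and over control, and strict gates gave 0.28, 0.36 and 0.31 there (poly I:C over control, combination over phenformin, combination over control) and 0.28 and 0.03 in dendritic cells (poly I:C and combination over control).

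Single ratios that changed sign (log2) were Hk3 in T cells (-0.02) for poly I:C over control and, in dendritic cells for the same comparison, Slc2a1 (-0.09), Hk2 (-0.03), Hk3 (-0.74) and Bnip3 (-0.69), all in cells in 1 gate only. Hk2 was also -0.01 as a mean over cells. In dendritic cells in 1 gate only, Bnip3 was 0.11 for combination over poly I:C and Hilpda -0.95 for combination over phenformin. Thinning gave -0.17 for Hilpda and 0.30 for Aldoc in that comparison, and in neutrophils 0.07 for Egln1 (phenformin over control), 0.39 for Ndrg1 and 0.40 for Egln3 (poly I:C over control). The cause was not tested.

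The counts of members past 1.5-fold, with the 2-fold threshold and the filter of 5 UMIs among the settings, ranged as follows where they moved. In macrophages higher counts came to 1 or 2 and lower counts to 0, 1 or 2. In T cells both reached 0 to 5. In neutrophils higher counts came to 0 to 10 (among them 2, 3, 4, 5, 6, 7, 8 and 9). Lower counts there came to 0 to 5, and to 8 for poly I:C over control in cells in 1 gate only. In dendritic cells both came to 0 to 8. In tumour cells higher counts came to 1, 2 or 3 and lower counts to 0 to 5.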
